A study of Mus musculus with 2 samples.

Results

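Transcripts of 7 subunits of the GABA-A receptor were described across the cell classes of the mouse hippocampus. These were the alpha subunit genes Gabra2, Gabra4 and Gabra5, the beta subunit genes Gabrb1 and Gabrb2, the gamma subunit gene Gabrg3 and the delta subunit gene Gabrd. They were taken by symbol from a deposited table of 30223 genes in 15930 cells. All 7 were found in the table.

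The cells came from wild-type control mice and from mice homozygous for the knock-in allele Pigv341E, which had been made by genome editing with CRISPR-Cas9. Both groups were of strain C57Bl.6/J, and their age and sex are not given in the labels used here. Cells from 8 hippocampi of 4 mice per genotype were brought into suspension mechanically at low temperature, and each genotype was pooled. Each genotype is therefore 1 library, droplet-based (10x Genomics chemistry v3), with 7094 wild-type and 8836 knock-in cells. With 1 library per genotype there was no replicate and no test. Genotype cannot be told apart from library, and every interval below covers counting error only.

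The GABA-A receptor is a pentameric chloride channel opened by GABA, the main inhibitory transmitter of the brain. Alpha and beta subunits together form the GABA binding sites, and a gamma or delta subunit usually completes the channel. Receptors with a gamma subunit and alpha1, alpha2 or alpha3 gather at synapses, where gephyrin anchors them. Receptors with alpha5 in pyramidal cells, and with alpha4 and delta in dentate granule cells, lie largely outside synapses and carry tonic inhibition. The product of Pigv is a mannosyltransferase needed to make glycosylphosphatidylinositol anchors for surface proteins, and GABA-A subunits are not themselves held by such an anchor.

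On genome build GRCm38 with the GENCODE M21 annotation, the members lie in clusters of receptor genes and alone. On chromosome 5, Gabra2 spans chr5:70957597-71095849 and Gabra4 spans chr5:71569749-71658308, both on the minus strand. Gabrb1 spans chr5:71658113-72149037 on the plus strand, so that it and Gabra4 start head to head and share 196 bp. On chromosome 7, Gabrg3 (chr7:56716465-57387188) and Gabra5 (chr7:57407672-57510059) are on the minus strand. Gabrb2 (chr11:42419757-42629028, plus strand) and Gabrd (chr4:155384980-155398112, minus strand) overlap no other annotated gene.

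RefSeq upstream sequence (GRCm38.p6) was matched by symbol for 6 of the 7 members. The sequences before Gabra4 and the first RefSeq start of Gabrb1 are shown because these neighbouring genes start head to head and yet had their highest levels in different cell classes. Gabrb1 has a further RefSeq start inside the gene, and the sequence before it (chr5:71699682-71699931) is not shown. The sequence before Gabra5 is shown because CA3 was the class in which this extrasynaptic subunit had its highest level. That before Gabrg3 is shown because this member was high in Lhx6-type interneurons and low in dentate granule cells. Bases are given 5′ to 3′ on the strand of the gene and end just before the RefSeq start. The exceptions are Gabra4 and Gabrb1, where 55 and 111 bases at the 3′ end were left out. These are annotated as untranslated sequence and lie within the other gene of the pair. Coding sequence was not left out, so the stretch shown for Gabrb1 may hold coding bases of Gabra4. Capitals mark the GC-box GGGCGG or its reverse complement.
Gabra4, chr5:71658364-71658558, minus strand: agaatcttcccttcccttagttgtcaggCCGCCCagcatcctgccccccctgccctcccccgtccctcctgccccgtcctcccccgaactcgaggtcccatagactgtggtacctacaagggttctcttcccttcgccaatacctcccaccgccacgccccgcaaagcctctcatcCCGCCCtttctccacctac
Gabrb1, chr5:71657671-71657809, plus strand: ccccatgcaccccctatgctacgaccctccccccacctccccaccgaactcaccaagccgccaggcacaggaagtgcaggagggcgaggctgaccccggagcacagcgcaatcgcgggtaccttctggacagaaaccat
Gabra5, chr7:57510060-57510309, minus strand: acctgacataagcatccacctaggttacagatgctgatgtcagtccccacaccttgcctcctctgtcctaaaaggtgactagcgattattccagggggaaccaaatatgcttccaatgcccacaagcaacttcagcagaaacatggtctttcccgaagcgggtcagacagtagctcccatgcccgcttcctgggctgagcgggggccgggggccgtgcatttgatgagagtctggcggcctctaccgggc
Gabrg3, chr7:57387216-57387465, minus strand: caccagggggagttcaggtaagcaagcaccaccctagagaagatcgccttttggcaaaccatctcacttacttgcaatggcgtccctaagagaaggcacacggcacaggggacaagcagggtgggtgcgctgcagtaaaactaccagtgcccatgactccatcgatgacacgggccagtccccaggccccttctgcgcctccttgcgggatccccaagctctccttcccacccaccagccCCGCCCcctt
The Gabra4 sequence lies within Gabrb1 and the Gabrb1 sequence within Gabra4. The motifs searched on both strands were the CRE TGACGTCA, the E-box CACGTG, the EGR site GCGTGGGCG, the GC-box GGGCGG and the TATA box TATAAA. No match overlapped another. The 195 bases before Gabra4 held 2 GC-boxes, a motif present in 23.8% of all RefSeq windows of that length. The 250 bases before Gabrg3 held 1 GC-box, present in 32.7% of windows of 250 bases. The sequences shown for Gabrb1 and Gabra5 held none of these letters, which says nothing about the factors that bind there. Of the searched sequences not shown, that before Gabra2 held 1 GC-box. That before the first Gabrb2 start held 1 GC-box and 1 TATA box, the latter present in 12.4% of windows of 250 bases. The other Gabrb2 starts and the further Gabrb1 start had no match. No protein sequence was used here.

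Values in the table are depth-corrected by the authors, so they are scores and not counted molecules. The median total per cell was 8631 in wild-type and 9608 in knock-in cells, with 3122 and 3736 detected genes. Of the cell barcodes, 28 were in both libraries. Pigv, the edited gene, had levels of 0.0886 (wild-type library) and 0.1004 (knock-in library) per 10000. This level does not check the genotype, because the edit need not alter transcript amount. Clustering without the GABA-A genes gave 37 clusters, of which 28 were named from marker genes, and 15 classes had at least 50 cells in each library. Names such as dentate granule, CA1 or astrocyte below stand for dentate granule-like, CA1-like and astrocyte-like cells, since they rest on markers alone. One cluster met the interneuron list, with 4 of 6 markers counted, but is called the Lef1 cluster here after a leading gene. Gad1, Gad2 or Slc32a1, genes of GABA release, were above 0 in 53.7% of its wild-type and 62.1% of its knock-in cells, and Slc17a6, a glutamate transporter gene, in 43.9% and 36.1%. Both were above 0 in only 8.54% and 5.94%, so that the cluster held cells of both kinds. In Lhx6-type interneurons the GABA genes were above 0 in 153 of 156 and 253 of 255 cells, and Slc17a6 in 3 and 5 cells. The 9 unnamed clusters held 626 wild-type and 819 knock-in cells.

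A level below is what a gene contributes, per 10000, to the total of all values in the cells of a class. Levels are not divided by transcript length, so they compare 1 gene between classes and libraries and not 1 gene with another. With 1 library per genotype a spread over samples cannot be given, and an order of classes is stated only where both libraries gave it.

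Each member had its own pattern across the 15 classes, and 6 of the 7 were highest in the same class in both libraries. Gabra4 and Gabrd were highest in dentate granule cells, Gabra5 in CA3, Gabrb1 in astrocytes, and Gabrb2 and Gabrg3 in Lhx6-type interneurons, a group that includes parvalbumin and somatostatin cells. Gabra2 was highest in dentate granule cells of the wild-type library and in CA1 cells of the knock-in library. Across the 15 classes the log2 levels of the 2 libraries were correlated with Pearson's r from 0.93 for Gabra4 to 0.98 for Gabrb1. These correlations are descriptions, since all classes of a genotype share a library.

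**Figure D1:**
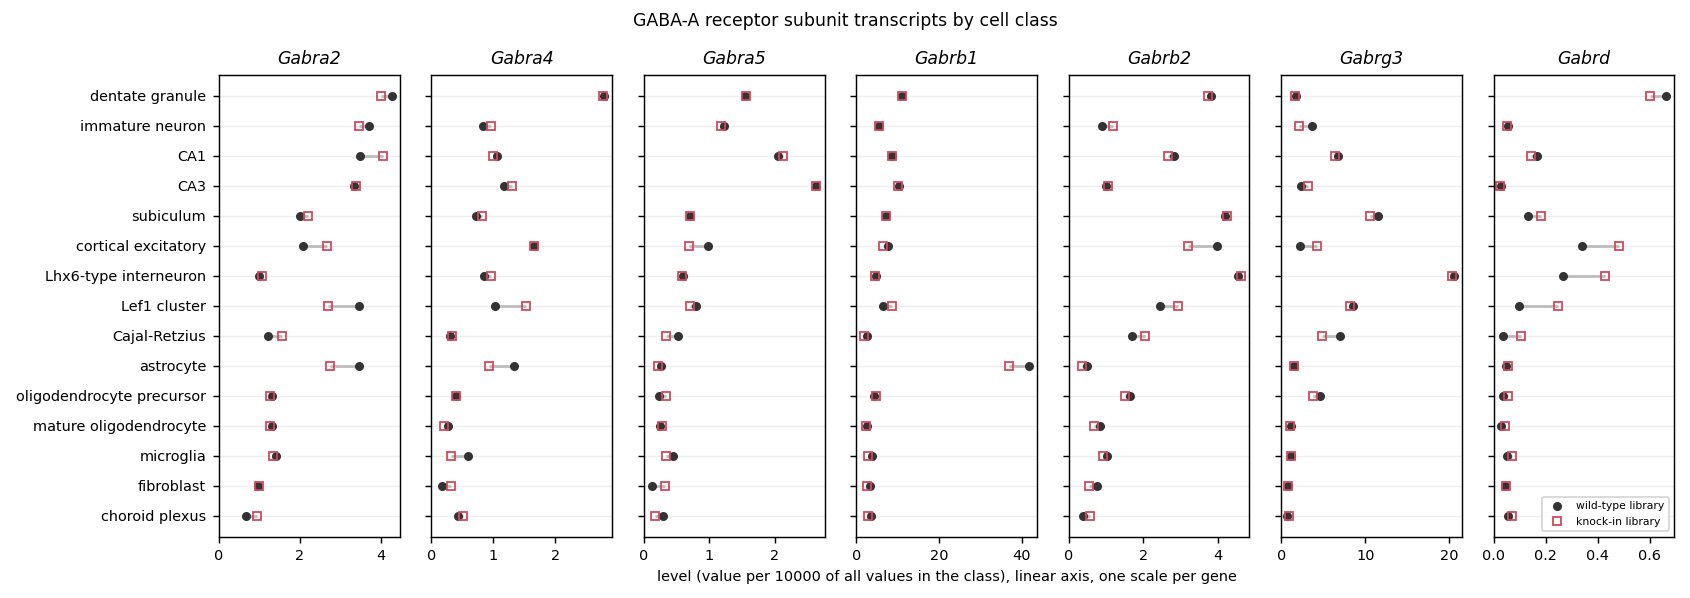
Level of each subunit transcript (value per 10000 of all values, linear axis with a scale of its own for each gene) in 15 cell classes. Filled circles are the wild-type library and open squares the knock-in library, 1 library each. Gabrb1 stands out in astrocytes at 41.7 and 36.9, and Gabrg3 in Lhx6-type interneurons at 20.5 and 20.4.

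The alpha subunits set the binding properties and much of the location of the receptor. Gabra2, whose product is found at synapses and on the axon initial segment, had levels of 4.27 and 4.00 in dentate granule cells of the wild-type and knock-in libraries. It was at 3.49 and 4.05 in CA1 and at 3.33 and 3.37 in CA3. The principal cells of the hippocampus thus lay close together for this gene, and more than 93% of dentate granule, CA1 and CA3 cells had a value above 0 in each library. Lhx6-type interneurons were at 0.993 and 1.07. Astrocytes, at 3.46 and 2.74, lay within the range of the neuron classes. The lowest class in both libraries was choroid plexus, at 0.670 and 0.951.

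Levels of Gabra2 differed within CA1. The class held 2 clusters, and Gabra2 was higher in the smaller, at 4.77 in wild-type and 5.53 in knock-in cells, than in the larger, at 3.08 and 3.17. The smaller cluster made up 202 of 830 CA1 cells in wild-type and 369 of 993 in knock-in mice. With both clusters given the same weight in both libraries the log2 ratio of CA1 was 0.11 in place of 0.21. Gabra2 was thus higher in the knock-in library within each cluster as well as in the class. Unnamed clusters of excitatory cells were not alike for this gene. A cluster led by Gm28928, Rai14 and Cdh18 had Gabra2 at 0.634 and 0.461.

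Gabra4, the alpha subunit that pairs with delta in dentate granule cells, had levels of 2.78 and 2.76 there. The next class in both libraries was cortical excitatory cells, at 1.66 in each. CA3 was at 1.17 and 1.30 and CA1 at 1.06 and 0.996, so that dentate granule cells had more than double the level of either pyramidal class. Values above 0 were found in 89.6% of wild-type dentate granule cells (exact Clopper-Pearson 95% interval 87.9 to 91.1) and 90.9% of knock-in ones (89.3 to 92.4). In CA1 the shares were 59.9% and 57.3%. Within dentate granule cells the 3 clusters were at 2.82, 2.67 and 2.01 in wild-type cells, and at 2.82, 2.66 and 2.14 in knock-in cells.

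Gabra5, the alpha subunit of extrasynaptic receptors in pyramidal cells, was highest in CA3, at 2.64 in wild-type and 2.63 in knock-in cells. CA1 followed at 2.04 and 2.12, and dentate granule cells at 1.55 and 1.56. This order of CA3, CA1 and dentate granule was the same in both libraries. Subiculum was at 0.710 in each library, and Lhx6-type interneurons were at 0.604 and 0.587. All 6 glial, choroid plexus and fibroblast classes lay between 0.124 and 0.439 in wild-type and between 0.174 and 0.343 in knock-in cells. Values above 0 were spread over most CA3 cells, 89.5% in wild-type and 91.9% in knock-in, and only 14.6% and 14.1% of CA3 cells had a value of 5 or more.

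Gabrb1, a gene of the beta subunits, which form the GABA binding site with alpha, was highest in astrocytes. It was at 41.7 in wild-type and 36.9 in knock-in astrocytes, 3.80-fold and 3.35-fold the level of the next class, dentate granule cells, at 10.998 and 11.03. CA3 was at 10.3 and 10.2 and CA1 at 8.74 in each. The lowest class in both libraries was Cajal-Retzius cells, at 2.51 and 1.89. Gabrb1 was the member that met the level limit given below in all 15 classes. That limit is the same for every gene, so it does not rank the members.

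The level of Gabrb1 differed between the astrocyte clusters as well. The large cluster led by Rgs20 and Slc1a2 was at 43.4 and 38.5, and the smaller cluster led by Myoc, Aqp4 and Gfap was at 33.8 and 29.3. Both clusters were lower in the knock-in library. The 8 astrocyte markers summed to 97.8 and 108 in astrocytes, 3.71 and 3.43 in CA3, 2.06 and 2.26 in dentate granule cells and 0.673 and 0.871 in CA1. The part of astrocyte RNA in the neuronal levels was not tested.

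Gabrb2, a beta subunit of many synaptic receptors, had another distribution. Among the classes it was highest in Lhx6-type interneurons, at 4.54 and 4.62, then in subiculum, at 4.17 and 4.25, a difference of 1.09-fold in each library. An unnamed cluster of excitatory cells, led by AC060761.1 and Sgcz, with 109 wild-type and 81 knock-in cells, was higher still, at 5.07 and 4.72. Dentate granule cells were at 3.80 and 3.74 and CA1 at 2.83 and 2.65. CA3 was lower than the other principal cells, at 1.008 and 1.06. Astrocytes were at 0.493 and 0.359. CA3 cells thus lay near dentate granule cells for Gabrb1 and well below them for Gabrb2.

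Gabrg3, a gamma subunit that is rarer in the adult brain than gamma2, differed widely between neuron classes. It was at 20.5 in wild-type and 20.4 in knock-in Lhx6-type interneurons. Subiculum followed at 11.5 and 10.6, and the Lef1 cluster was at 8.56 and 8.17. Within that cluster it was at 10.8 and 9.24 in cells with Gad1, Gad2 or Slc32a1 and at 6.53 and 6.49 in cells with Slc17a6. CA1 was at 6.82 and 6.35 and dentate granule cells at 1.70 and 1.61. The level in Lhx6-type interneurons was 31.6-fold that of choroid plexus in wild-type and 23.6-fold that of fibroblasts in knock-in cells, the lowest classes. Outside the named classes, a cluster led by Vwc2l, Cntn6 and Sntb1 was as high, at 21.1 and 22.7, with Gabra2 at 0.420 and 0.655.

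Among glia, Gabrg3 was highest in oligodendrocyte precursors, at 4.61 and 3.81, with 75.7% and 68.9% of cells above 0. Mature oligodendrocytes, a later stage of that lineage, were at 1.16 and 1.06, with 67.0% and 55.4% of cells above 0. Microglia were at 1.18 and 1.19, with 63.9% and 55.2%. The share above 0 thus separated these classes less than the level did. Precursors were also above mature oligodendrocytes for Gabrb1, at 4.34 and 4.71 against 2.57 and 2.38, and for Gabrb2, at 1.63 and 1.51 against 0.838 and 0.673. For Gabra2 the 2 stages had the same level, 1.30 in wild-type cells and 1.27 in knock-in cells. Microglia were close to them, at 1.40 and 1.34, so that this level was not particular to the lineage. The equal Gabra2 levels of the 2 stages were made up differently. Values above 0 were found in 51.4% and 46.0% of precursors, with a mean of 2.09 and 2.36 among those cells. In mature oligodendrocytes the shares were 75.1% and 66.3%, with a mean of 1.39 and 1.56.

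CA3 cells did not share Gabrg3 evenly. A value above 0 was found in only 63 of 315 wild-type CA3 cells (20%, interval 15.7 to 24.9) and 22.2% of knock-in ones (82 of 369, interval 18.1 to 26.8). In CA1 the shares were 95.3% and 90.7%. The CA3 cells above 0 were nonetheless high, with a mean value of 11.9 in wild-type and 14.4 in knock-in cells, against 7.05 and 6.96 in CA1 cells above 0. In dentate granule cells, by contrast, 58.0% and 58.3% were above 0 and only 0.619% and 0.830% had a value from 10 to 19, with no cell at 20 or more.

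**Figure D2:**
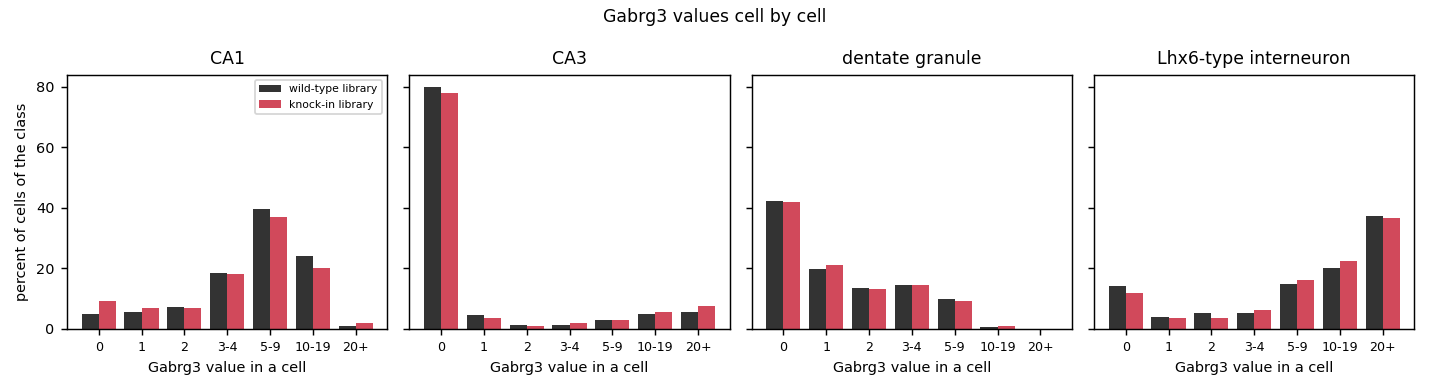
Share of cells (%, linear axis) by their Gabrg3 value in 4 classes; black bars are wild-type and red bars knock-in cells. In CA3, 80.0% and 77.8% of cells are at 0, and the highest bin, 20 or more, holds 5.40% and 7.59% of cells, more than any bin from 2 to 9.

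The CA3 cells with a Gabrg3 value of 5 or more were 41 wild-type cells (13.02%) and 59 knock-in cells (15.99%). They were set against CA3 cells at 0 as a description. This split was made on the measured value after it had been seen, and the clusters were built without Gabrg3. In both libraries the cells with Gabrg3 were higher in St18, at 7.70 against 0.0725 in wild-type and 6.94 against 0.117 in knock-in cells. They were also higher in Unc5d, a netrin receptor gene, at 16.4 against 0.629 and 13.5 against 0.761, and in Nrg1, which encodes neuregulin 1, at 11.6 against 0.181 and 7.86 against 0.577. Epha3, an Eph receptor gene, was lower, at 0.463 against 6.44 and 0.218 against 7.70. These are among the 16 genes with the largest differences in the same direction in both libraries, chosen after the values were seen. Efna5 was another, at 4.55 against 0.258 in wild-type and 4.07 against 0.276 in knock-in cells. Unc5d and Efna5 were also leading genes of the cortical excitatory cluster.

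Markers of some other classes, with cortical excitatory cells not among them, were examined in the same cells. The 7 CA3 markers summed to 17.9 in wild-type CA3 cells with Gabrg3 and 28.6 in those at 0, and to 18.1 and 31.4 in knock-in cells. The 7 dentate granule markers summed to 3.90 against 1.02 and to 3.36 against 1.34, and the 6 CA1 markers to 3.21 against 1.90 and to 2.45 against 1.39. The 7 mossy cell markers summed to 1.61 against 1.74 in wild-type and to 2.33 against 1.23 in knock-in cells, so that their direction differed between libraries. Interneuron markers stayed below 0.5 in sum in each set. The median number of detected genes was 4340 and 4067 in wild-type and 4587 and 4205 in knock-in cells. At a finer clustering, resolution 2, 39 of these 41 wild-type cells and all 59 knock-in cells were still in the same cluster as most CA3 cells at 0. Among the members, Gabra5 was at 2.65 against 2.63 in wild-type and 2.47 against 2.70 in knock-in cells, and Gabra2 was at 2.51 against 3.47 and 2.87 against 3.44. The part of mixed or other cells in this set was not tested.

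Gabrd, whose product replaces gamma in extrasynaptic receptors, was below the level limit of 1 in every class. It was clearest in dentate granule cells, at levels of 0.663 and 0.60. Values above 0 were found in 44.2% of wild-type (643 of 1454, interval 41.7 to 46.8) and 43.9% of knock-in dentate granule cells (635 of 1445, interval 41.4 to 46.5). The mean among the cells above 0 was 1.45 and 1.35. As a background, mature oligodendrocytes, taken as a class that should lack the subunit, had values above 0 in 1.62% and 2.54% of cells. The median number of detected genes was 3914.5 and 4197 in dentate granule cells and 2217 and 2250 in mature oligodendrocytes. With every cell thinned to the same total of 1000, the shares were 5.78% and 6.64% in dentate granule cells and 0.473% and 0.617% in mature oligodendrocytes.

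CA3 cells were at the background for Gabrd, with 2.54% and 2.44% of cells above 0 and levels of 0.0290 and 0.0247. Their median number of detected genes was 4093 and 4248. These are depth-corrected values, and the part of sequencing depth was not tested. CA1 was in between, with 15.1% and 13.7%. Cortical excitatory cells had 29.3% (interval 21.4 to 38.2) and 36.9% (32.5 to 41.5), and Lhx6-type interneurons 17.9% (12.3 to 24.9) and 29.8% (24.3 to 35.8). The next class after dentate granule was cortical excitatory in both libraries. Gabrd and Gabra5, the extrasynaptic members, were thus ordered differently across the principal cells, with CA3 highest for Gabra5 and at background for Gabrd.

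**Figure D3:**
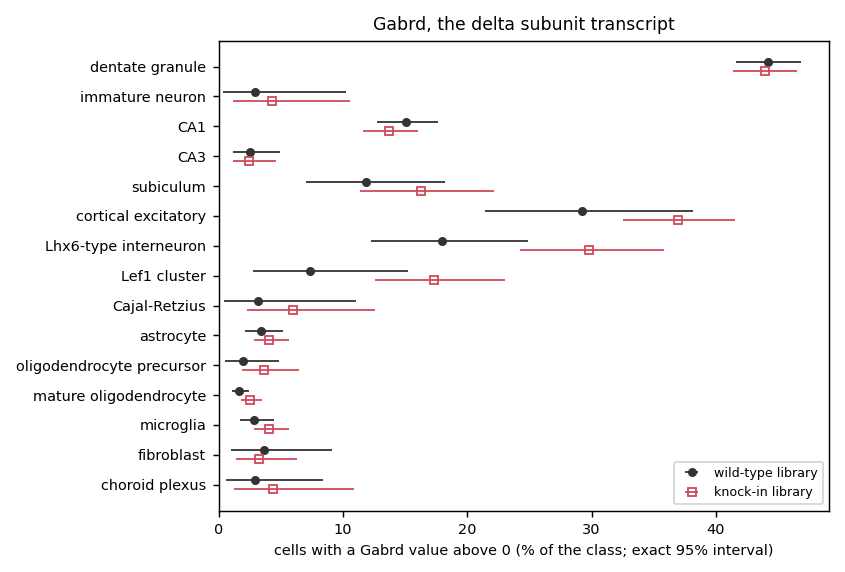
Share of cells with a Gabrd value above 0 (%, linear axis) in 15 classes; filled circles are wild-type and open squares knock-in cells, and bars are exact 95% intervals for counting error. Dentate granule cells are at 44.2% and 43.9%, while CA3 is at 2.54% and 2.44%, near mature oligodendrocytes at 1.62% and 2.54%.

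Co-detection in single cells moved with thinning. Among dentate granule cells above 0 for Gabra4, 45.5% of wild-type and 44.8% of knock-in cells were above 0 for Gabrd, against 33.1% and 35.1% of cells at 0 for Gabra4. After thinning to 1000 the shares were 6.51% and 7.40% with Gabra4, and 5.56% and 6.39% without it. For Gabra5 and Gabrg3 in CA1 the direction turned with thinning. As deposited, 80.4% and 83.0% of CA1 cells with Gabrg3 were above 0 for Gabra5, against 74.4% and 77.2% of those without, and after thinning the shares were 14.6% and 17.3% against 16.8% and 19.3%.

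The make-up of the 7 transcripts differed by class. Shares here are of their summed level, not divided by length, and compare 1 gene across classes. Gabrg3 made up 63.1% of the sum in wild-type and 62.5% in knock-in Lhx6-type interneurons, 43.5% and 40.7% in subiculum, 27.1% and 25.3% in CA1 and 6.60% and 6.37% in dentate granule cells. Gabra4 and Gabrd had their largest shares among hippocampal principal cells in dentate granule cells, at 10.8% and 10.9% for Gabra4 and 2.57% and 2.37% for Gabrd. Gabra5 had its largest share in CA3, at 12.6% and 12.04%. Gabrb1 made up 85.4% and 86.3% in astrocytes. In other classes the libraries lay further apart. The share of Gabrg3 was 11.9% in wild-type and 21.7% in knock-in cortical excitatory cells, 23.2% and 14.5% in immature neurons and 52.8% and 43.7% in Cajal-Retzius cells, and that of Gabrb1 was 59.3% and 46.2% in choroid plexus.

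Excitatory neuron markers were present at a low level in every non-neuronal class, beside the low member levels there. The 7 excitatory markers summed to between 3.20 and 6.11 in the 6 non-neuronal classes of the wild-type library, against 26.2 in CA1, and in no class were any of them at 0. Microglia had the highest such sum, at 6.11 and 5.25. Levels of the members in non-neuronal classes, Gabra2 and Gabrg3 included, are therefore given as values. The part of RNA from other cells in them was not tested.

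The libraries were set side by side with a rule of size. A pair of a gene and a class was past the rule when the log2 ratio (knock-in over wild-type, after adding 0.1 to each level) was at least 1 in size, with a level of at least 1 and at least 10% of cells above 0 in 1 library. Of the 105 pairs of a member and a class, 62 met the limits on level and cells, and 0 were past the rule. Over all genes and the 15 classes, 356 of 31372 pairs were past it, or 1.13%. At that share a count of 0 among 62 is near the background and is not a result about the members. Gabrd met the limits in 0 classes, Gabra5 in 4, Gabra4 in 6, Gabrb2 in 11, Gabra2 and Gabrg3 in 13 each and Gabrb1 in 15.

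Among the 62 pairs the log2 ratio lay between -0.80 and 0.87 with a median of -0.03, beside a median of -0.06 over all pairs. It was above 0 in 25 pairs and below 0 in 37. The median size of the log2 ratio, without sign, was 0.10 for members and 0.16 for all pairs. A size under 0.5 was found for 58 of the 62 pairs (93.5%) and for 91.8% of all pairs. In dentate granule cells the log2 ratios of the 6 members that met the limits lay between -0.09 and 0.01.

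**Figure D4:**
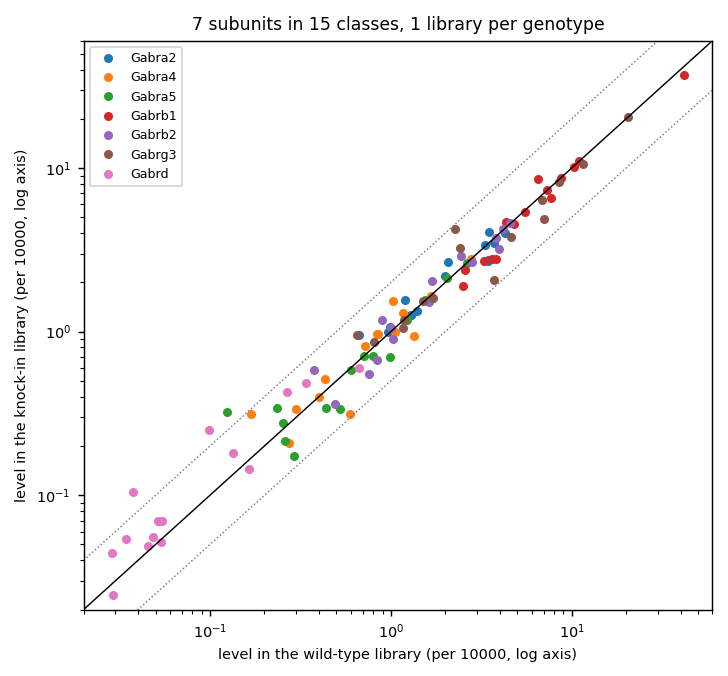
Level in the knock-in library against level in the wild-type library (per 10000, log axes) for 7 subunits in 15 classes, 1 point per subunit and class. The solid line marks equal levels and the dotted lines a 2-fold difference; most points lie near the solid line over a range from 0.0247 to 41.7, and the points outside the dotted lines are low levels of Gabrd and Gabra5, where adding 0.1 shrinks the ratio used in the text.

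A total of 6 of the 62 pairs (9.68%) lay outside the 5th to 95th percentile of all genes meeting the limits in their own class, a band that leaves out 10% of genes by construction. They were Gabrg3 in cortical excitatory cells, immature neurons and CA3, Gabra4 in astrocytes and in the Lef1 cluster, and Gabrb1 in microglia. These pairs were chosen by this measure, so their ratios are descriptions.

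**Figure D5:**
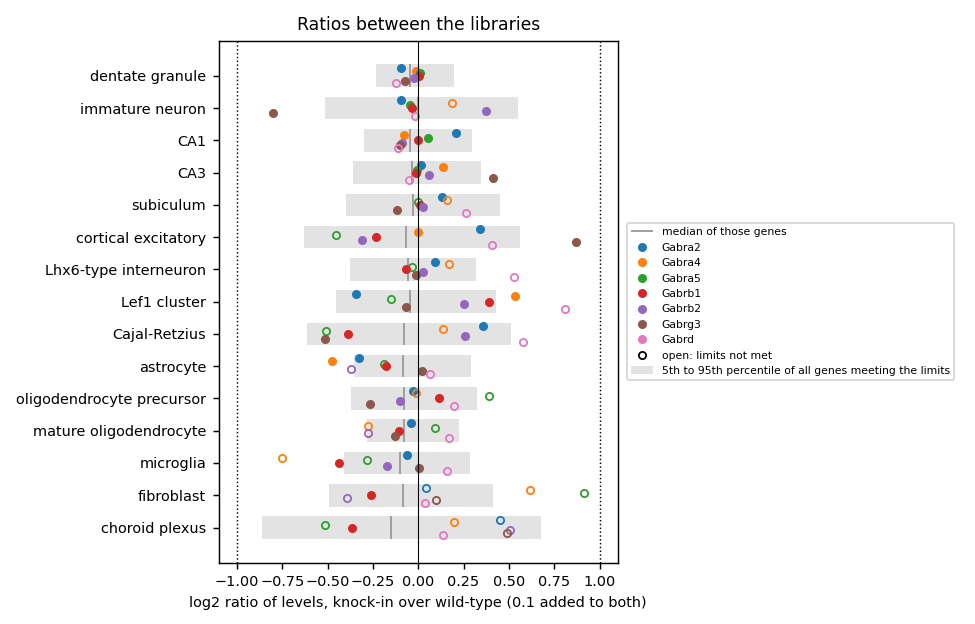
Log2 ratio of levels, knock-in over wild-type, for each subunit (coloured points, open where the limits on level and cells were not met) in 15 classes. Grey bars span the 5th to 95th percentile of all genes meeting the limits, grey ticks their median, and dotted lines mark a log2 ratio of -1 and 1; no subunit is past the dotted lines.

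The largest ratio was that of Gabrg3 in cortical excitatory cells, at 2.27 in wild-type and 4.24 in knock-in cells (log2 ratio 0.87). Values above 0 were found in 43.9% (interval 34.97 to 53.1) and 65.0% (60.5 to 69.4) of cells. The class was unequal in size, with 123 wild-type and 463 knock-in cells. At resolution 2 it fell into a cluster of 119 wild-type and 364 knock-in cells and a cluster led by Hs3st2 and Sema3e with 4 wild-type and 98 knock-in cells. Gabrg3 was at 7.91 in the knock-in cells of the second cluster, and at 1.93 and 3.23 in the first. The class was thus not made of the same cells in both libraries, and it was unnamed at resolution 2. With 15 principal components it was also not among the classes that could be compared.

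The lowest ratio was that of Gabrg3 in immature neurons, at 3.70 in wild-type and 2.08 in knock-in cells (log2 ratio -0.80). This class had 68 and 94 cells, and 77.9% (interval 66.2 to 87.1) and 58.5% (47.9 to 68.6) of them were above 0. With 15 principal components in the clustering the ratio was -0.20, and between -0.80 and -1.56 under the other alternatives. In CA3 the Gabrg3 levels of 2.41 and 3.23 (log2 ratio 0.41) rested on the cells with high values described above.

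In glia, Gabra4 was at 1.34 in wild-type and 0.935 in knock-in astrocytes (log2 ratio -0.48), and Gabra2 was at 3.46 and 2.74 (-0.32). The 7 dentate granule markers summed to 12.3 in wild-type and 10.2 in knock-in astrocytes, and the 7 excitatory markers to 3.76 and 3.65. The dentate granule list was not particular to granule cells. It summed to 10.2 and 9.93 in mature oligodendrocytes and 11.1 and 10.0 in choroid plexus, but to 2.28 and 2.35 in CA1. The part of RNA from other cells in the astrocyte levels was not tested. Gabrb1 was at 3.80 and 2.78 in microglia (log2 ratio -0.43), and Gabra4, below the limits, at 0.597 and 0.314 (-0.75).

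The 3 microglia clusters differed more than the libraries did for Gabrb1. It was at 7.81 and 5.19 in a cluster led by Cst3 and Tyrobp, at 4.51 and 3.98 in that led by Arhgap45 and Inpp5d, and at 1.09 and 1.47 in that led by P2ry12 and Cx3cr1. The first of these held 171 of 668 wild-type and 116 of 861 knock-in microglia. With the clusters given the same weight in both libraries the log2 ratio of Gabrb1 was -0.22, and with 15 principal components it was -0.06. P2ry12 and Cx3cr1 mark resting microglia, and their cluster had the most detected genes, a median of 3696 against 2413 and 2409.

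Genes of the GABA system outside the 7 members were described with lists. Of 12 other GABA-A subunit genes, 4 met the limits in at least 1 class, giving 22 pairs, with 0 past the rule in either direction and a median log2 ratio of -0.05. Of 15 genes for receptor assembly and anchoring, 9 gave 73 pairs, with 0 past the rule and a median of -0.09. The 4 chloride transport genes gave 40 pairs with 0 past the rule and a median of -0.11, and 7 of 9 genes for GABA synthesis, transport and breakdown gave 18 pairs, with 0 past the rule and a median of 0.08. GABA-B receptor genes gave 49 pairs, with 0 higher and 1 lower and a median of -0.13. All medians stand beside that of -0.06 over all pairs, and all counts beside 356 of 31372 pairs past the rule (1.13%). At that share these counts are near the background and are not results about the lists.

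The pair past the rule was Kctd8, an auxiliary subunit of GABA-B receptors, in the Lef1 cluster, at 4.70 in wild-type and 2.06 in knock-in cells (log2 ratio -1.15). In Lhx6-type interneurons it was at 4.06 and 3.28 and in subiculum at 5.66 and 6.02. In the Lef1 cluster 26 of 2225 genes meeting the limits were past the rule, so this pair is not a result about GABA-B receptors. Gad2, which makes GABA, was at 4.98 and 5.09 in Lhx6-type interneurons and at 1.70 and 2.28 in the Lef1 cluster, and Gad1 at 2.36 and 2.81, and 0.805 and 0.784. Slc32a1, the vesicular GABA transporter, was at 1.12 and 1.17 and at 0.681 and 0.899. The Lef1 cluster, in which fewer cells had these genes, thus held them at a lower level than the Lhx6-type class in both libraries.

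Gphn, which encodes gephyrin and also serves the synthesis of molybdenum cofactor, was highest in astrocytes, at 15.2 in wild-type and 15.03 in knock-in cells, and in mature oligodendrocytes, at 12.8 and 12.9. Dentate granule cells were at 6.12 and 6.00. Slc12a5, the chloride extruder KCC2 of mature neurons, was at 1.70 and 1.54 in CA1, 1.64 and 1.53 in dentate granule cells and 0.391 and 0.489 in immature neurons. Slc12a2, the chloride importer NKCC1, was highest in mature oligodendrocytes, at 4.21 and 4.11, and was at 0.835 and 0.501 in immature neurons.

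Genes of like pattern were sought across 32 clusters by Pearson's r of log2 levels, taking the lower of the r in the 2 libraries, among 5780 genes. Clusters of a library share that library and its depth, so r is a description. Ryr2, a calcium release channel gene, and Rbfox3, which encodes the neuronal marker NeuN, were among the nearest to Gabra5, with r of 0.88 in both libraries for each. Lrfn5, Sptbn4 and Rit2 came first for Gabrb2, with r of at least 0.907 in each library. Kalrn (r of 0.80 and 0.83) and Dlgap1 (0.86 and 0.78) were among the nearest to Gabra4.

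For the other members the nearest genes were Fam19a1, Galnt17 and Galnt16 for Gabra2 (r of 0.80 and 0.80 for Fam19a1), Dclk1, Arhgef4 and Fmn2 for Gabrb1 (0.84 and 0.86 for Dclk1), Rian, A330102I10Rik and Fgf12 for Gabrg3 (0.84 and 0.84 for Rian) and Sv2c, A230004M16Rik and Cnnm1 for Gabrd (0.78 and 0.79 for Sv2c). Between members, the head-to-head neighbours Gabra4 and Gabrb1 had r of 0.79 and 0.71, and the neighbours Gabra5 and Gabrg3 had 0.57 and 0.53. Gabrb2 and Gabrg3, on different chromosomes, had 0.75 and 0.70. The lowest r of any pair of members was that of Gabra2 and Gabrg3, at 0.27 and 0.15.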

How the data were processed

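The deposited table holds whole-number scores per gene and cell. Per the submitters' processing notes the authors used Seurat 3.0.0 and genome build GRCm38; the table's name is that of Seurat's depth-corrected assay, so the deposited score is not a count and no count model was used. The aligner, use of strand and cell filter are not given in the sources used here. All cell columns were mapped to a library by their prefix (0 unmapped). Cells were clustered with scanpy 1.11.5 (Python 3.11.15): 2000 variable genes without GABA-A and sex-linked genes, 30 principal components, 15 neighbours, Leiden resolution 1.

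A marker counted for a cluster when found in at least 25% of its cells at 1.5-fold the level of other cells. A cluster took a class with at least 3 such markers and 60% of the class's list (50% for a parent class). It stayed unnamed when mitochondrial genes led it, when another lineage reached 50% of its list, when another class led its 10 top genes, or when no own marker was among them and under 80% of the list counted. This rule was set, and once tightened from 60% to 50% for another lineage, after the clusters and the members' levels in them had been seen. The cluster that met only the interneuron list was called the Lef1 cluster after its genes had been seen. The members and lists were chosen with earlier results of these data known.

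Doublets were kept; Scrublet called 61 wild-type (0.860%) and 209 knock-in cells (2.37%). Shares have exact Clopper-Pearson 95% intervals. Shares above 0 were also taken after thinning each cell to a total of 1000. The text names the 7 members, list genes past the size rule and 6 fixed genes of the GABA system, the 3 genes of most like pattern per member, and Pigv. Of the genes of like pattern, 2 are not reported here. Genes that lead clusters, split CA3 or enter the motif search were chosen after values were seen. The size rule was tested on simulated data. Positions are from GENCODE M21 and upstream sequence from RefSeq.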

Additional observations from a re-analysis of the deposited data

How the results depend on the processing

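No paired analysis was possible because each genotype is 1 library. The count of member and class pairs past the size rule was 0 in the main setting and under 12 of the 14 alternatives run. It was 1 with values of 1 set to 0 (Gabrg3 in cortical excitatory cells, log2 ratio 1.00; 2.34% of all pairs past the rule) and 5 with cells thinned to 1000 (5.72% of all pairs), namely Gabra2 and Gabra4 in the Lef1 cluster, Gabrb2 in Cajal-Retzius cells and fibroblasts, and Gabrg3 in immature neurons; the cause was not tested. Between 5 and 7 members were highest in the same class in both libraries. Log2 ratios moved by more than a tolerance for 60 of 105 pairs when thinned, 30 with values of 1 set to 0, 19 of 98 with 15 principal components, and 10 or fewer under each other alternative; the tolerance was the 95% normal half-width of the log2 ratio of the 2 shares of cells above 0, which covers counting of cells and not the error of a level. At resolution 2 and with 15 principal components 14 classes could be compared, and cortical excitatory cells were the class missing in both. Leaving out the 28 shared barcodes and the first version of the naming rule were added after the data were seen, and both gave 0 pairs past the rule. Depth-corrected values limit what low levels such as those of Gabrd can show.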
